A study of Mus musculus with 22 samples.

Results

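The receptor KIT, its ligand KITL and 7 further receptors of blood growth factors and cytokines (*Flt3*, *Csf1r*, *Csf2rb*, *Csf3r*, *Il7r*, *Epor* and *Il6st*) were followed through the endothelial-to-haematopoietic transition of the mouse embryo. These 9 genes were taken by name from the 24454 gene symbols of the count table, and all 9 were found there; the rule uses names alone, although the genes were picked with earlier results of these data known. The table holds 22 libraries, each made from 25 VE-Cadherin+ cells that were sorted from the aorta-gonad-mesonephros region (AGM) of untreated C57BL/6 embryos. Sorting by the surface proteins CD44 and Kit gave 10 CD44Neg libraries (labelled endothelial cells), of which 4 were from E9.5, 3 from E10 and 3 from E11, and 6 CD44LoKitNeg libraries (labelled hemogenic endothelial cells), with 1 from E9.5, 2 from E10 and 3 from E11. It also gave 3 CD44LoKitPos libraries (labelled pre-HSPC; 1 at E9.5 and 2 at E10) and 3 CD44High libraries (labelled HSPC, haematopoietic stem and progenitor cells; all at E11). The titles of the CD44LoKitPos and CD44High libraries carry the prefix KG, and those of the CD44Neg and CD44LoKitNeg libraries do not. The titles do not explain this prefix, and it cannot be told apart from the populations. Kit protein was part of the gate that separated CD44LoKitPos from CD44LoKitNeg, so the level of *Kit* between these populations is a check of the sort. The labels do not say which libraries share embryos, and the p-values below therefore measure the spread between libraries, which may be technical in part.

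KIT, FLT3 and CSF1R are class III receptor tyrosine kinases, which pair up when they bind their ligand and then phosphorylate each other. KIT with its ligand, stem cell factor, maintains blood stem cells and progenitors, and also acts in germ cells, melanoblasts and mast cells. FLT3 acts in multipotent and lymphoid progenitors, and CSF1R in macrophages. The other 5 are chains of type I cytokine receptors, which have no kinase of their own and signal through JAK kinases and STAT proteins. CSF2RB is the chain shared by the receptors of IL-3, GM-CSF and IL-5, CSF3R is the G-CSF receptor, EPOR the erythropoietin receptor, IL7R the IL-7 chain needed by lymphoid cells, and IL6ST (gp130) the signalling chain shared by the IL-6 family.

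The start regions of 4 members are shown because their mean levels ran differently through the 4 populations: *Kit* peaked in CD44LoKitPos, *Kitl* was highest in the endothelium, *Epor* was highest in CD44High, and *Csf3r* was high in CD44LoKitPos and CD44High, whose ranges overlapped. Each sequence runs 5′ to 3′ on the gene's own strand from 250 bases before to 50 bases after the RefSeq start site, in build GRCm38.p6 (the first of 2 listed for *Kit*). RefSeq start regions were matched for 7 of the 9 members. Capitals mark exact matches, on either strand, to the letters TGTGGT (bound by RUNX factors), GAGGAA (PU.1), AGATAA (bound by proteins of the GATA family) and CAGCTG (an E-box).
Kit, chr5:75574737-75575036, plus strand: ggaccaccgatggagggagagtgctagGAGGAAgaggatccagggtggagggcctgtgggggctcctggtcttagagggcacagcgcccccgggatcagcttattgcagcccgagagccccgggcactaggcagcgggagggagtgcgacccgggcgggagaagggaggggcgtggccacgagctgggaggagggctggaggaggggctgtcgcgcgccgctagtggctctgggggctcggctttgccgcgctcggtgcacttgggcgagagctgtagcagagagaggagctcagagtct
Kitl, chr10:100015571-100015870, plus strand: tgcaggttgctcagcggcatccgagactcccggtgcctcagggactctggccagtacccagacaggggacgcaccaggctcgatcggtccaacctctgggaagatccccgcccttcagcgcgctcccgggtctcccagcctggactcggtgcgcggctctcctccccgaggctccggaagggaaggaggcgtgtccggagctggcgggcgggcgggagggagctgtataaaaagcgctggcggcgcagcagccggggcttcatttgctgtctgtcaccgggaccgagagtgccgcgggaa
Epor, chr9:21963527-21963826, minus strand: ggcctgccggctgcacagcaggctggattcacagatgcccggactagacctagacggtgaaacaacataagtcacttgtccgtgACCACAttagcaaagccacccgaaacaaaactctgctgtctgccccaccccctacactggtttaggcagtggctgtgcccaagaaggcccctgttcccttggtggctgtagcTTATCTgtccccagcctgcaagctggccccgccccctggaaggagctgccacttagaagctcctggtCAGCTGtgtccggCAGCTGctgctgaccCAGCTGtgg
Csf3r, chr4:126024409-126024708, plus strand: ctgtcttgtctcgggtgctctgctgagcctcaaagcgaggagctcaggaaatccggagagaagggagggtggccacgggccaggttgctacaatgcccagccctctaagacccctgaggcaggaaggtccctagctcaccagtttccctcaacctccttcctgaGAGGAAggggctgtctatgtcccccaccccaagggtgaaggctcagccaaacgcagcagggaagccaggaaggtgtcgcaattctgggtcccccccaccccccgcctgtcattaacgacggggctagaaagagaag

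The start region of *Kit* holds 1 PU.1 match, at position −223 from the start site, and that of *Csf3r* holds 1, at −86. *Epor* holds a RUNX match on the other strand at −166, a GATA match on the other strand at −54 and E-box matches at 14, 27 and 42. *Kitl* holds none, as do *Flt3* and *Il6st*, and *Il7r* holds 1 RUNX match at position 4. Of 32851 start regions of this length, 28.3% hold GAGGAA, 16.8% TGTGGT, 16.3% CAGCTG and 11.2% AGATAA, so single matches are frequent and are given as a description of these letters only.

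Between 3912350 and 8657546 reads were counted per library. Levels are given as normalized CPM, the counts divided by library sizes scaled with TMM. For a library with 0 counts of a gene, the limit is 3 counts, or 0.348 to 0.816 normalized CPM over the 22 libraries; as molecules were not tagged before amplification, the limit is for counting error alone. Libraries of the same population and stage differed by far more than counting error, with a chi-square per degree of freedom of 16.997 to 85.16 over 20 pairs. The labelled cell types were compared with marker genes. The 10 endothelial markers summed to 4474 to 10388 normalized CPM per library in CD44Neg and CD44LoKitNeg, to 1079 to 2387 in CD44LoKitPos and to 73.4 to 157 in CD44High, where *Cdh5*, which encodes VE-Cadherin, had 0 counts in all 3 libraries although the cells were sorted as VE-Cadherin+. The 12 stem and progenitor cell markers summed to 18.3 to 88.8 in CD44Neg, 118 to 377 in CD44LoKitNeg, 531 to 1020 in CD44LoKitPos and 948 to 1148 in CD44High. In the CD44High libraries, 11 of 12 macrophage markers also exceeded 3 counts in every library, and their sum was 2055 to 5242, against at most 53.9 in the other 19 libraries. The 10 mesenchyme markers summed to 834, 588 and 0.272 in CD44High replicates 20, 21 and 22, to 133 to 270 in CD44LoKitPos, 158 to 293 in CD44LoKitNeg and 0.465 to 105 in CD44Neg. The 10 megakaryocyte markers summed to 87.3 to 321 in CD44LoKitPos and 119 to 360 in CD44High, against at most 37.3 in the endothelium. These lists were compared between populations in the same fits, and the 10 endothelial markers were all called lower in CD44High than in each other population. Over all genes, 7.25% were called lower in CD44High than in CD44Neg and 8.17% lower than in CD44LoKitNeg. Against CD44LoKitPos, 3.01% were called in either direction.

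The number of members above 3 counts in a library was 3 to 5 in CD44Neg, 3 to 6 in CD44LoKitNeg, 6 to 8 in CD44LoKitPos and 7 to 9 in CD44High. *Kit*, *Kitl* and *Il6st* were counted in all 16 endothelial libraries. Of the 5 receptors *Flt3*, *Csf1r*, *Csf2rb*, *Csf3r* and *Il7r*, at most 1 exceeded 3 counts in any CD44Neg library and at most 2 in any CD44LoKitNeg library, while 4 or 5 did so in every CD44LoKitPos and CD44High library. On the scale of normalized CPM per kb of exon, which allows genes to be compared, *Kitl* ranked first in CD44Neg (29.5 ± 13.3, SD, n = 10) and CD44LoKitNeg (13.9 ± 7.10, n = 6), *Kit* in CD44LoKitPos (43.7 ± 9.54, n = 3) and *Csf1r* in CD44High (84.4 ± 45.2, n = 3). In CD44High, *Csf3r* (19.9 ± 7.87 per kb), *Epor* (17.6 ± 11.98) and *Kit* (14.5 ± 7.79) came next and did not differ beyond their spread.

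**Figure D1:**
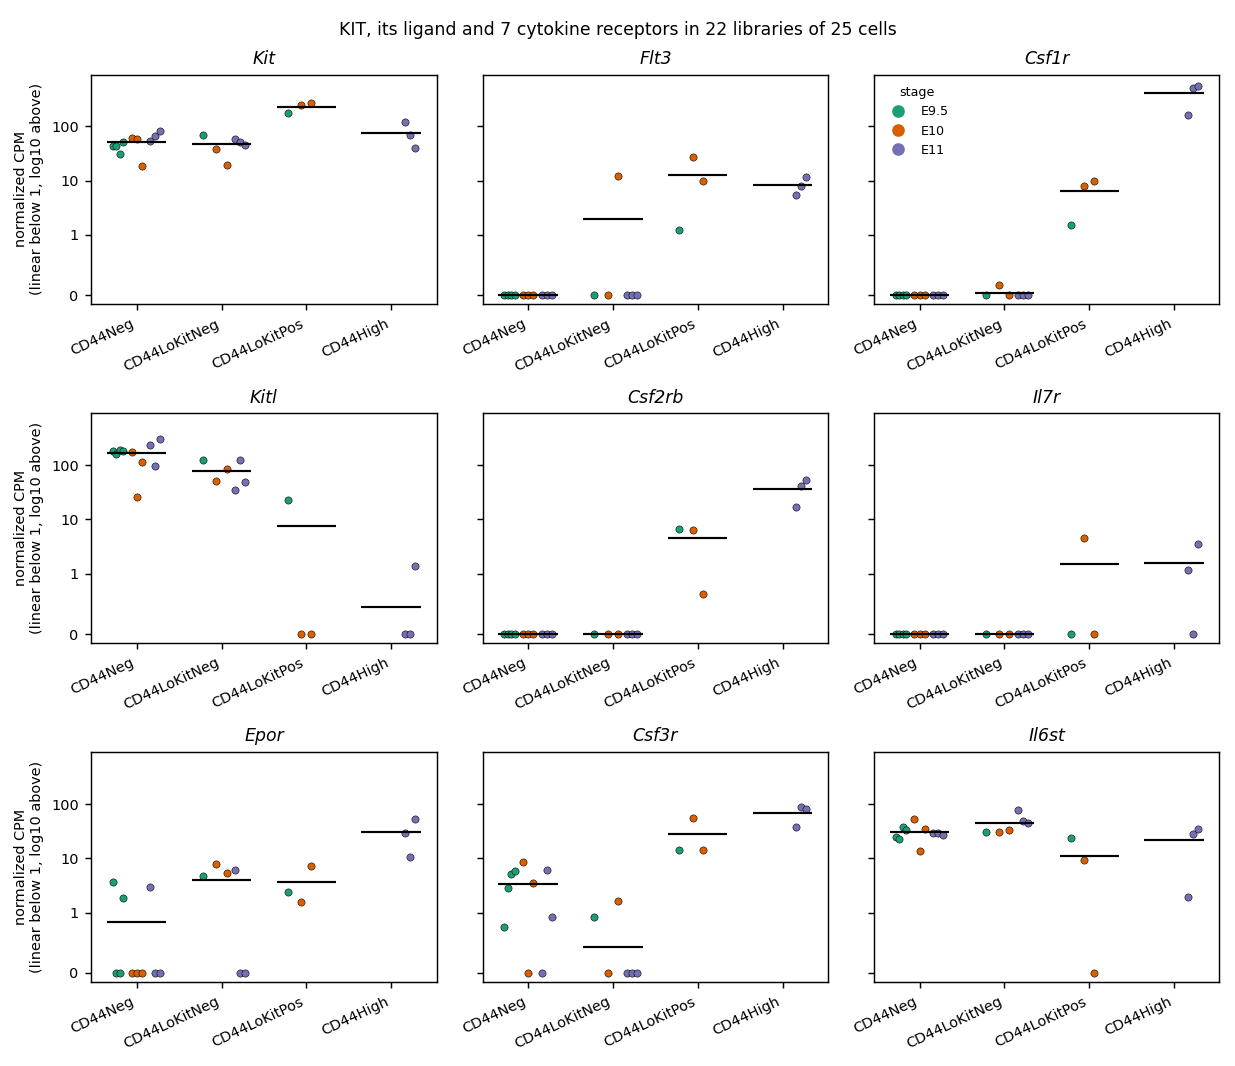
Normalized CPM of each of the 9 members (y axis, linear below 1 and log10 above) in the 22 libraries, by population (x axis). Points are libraries, coloured by embryonic stage, and horizontal lines are population means: *Kit* peaks in CD44LoKitPos at 229.7, *Kitl* falls from 166 in CD44Neg to 0.453 in CD44High, and *Csf1r* reaches 412 in CD44High.

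*Kit*, on chromosome 5 (75574916 to 75656722, plus strand, mm10), ranged from 18.3 to 83.01 normalized CPM in CD44Neg (median 53.0) and from 19.6 to 69.4 in CD44LoKitNeg (median 48.3). In CD44LoKitPos, it was at 246 and 270 at E10 and at 174 at E9.5. The 3 CD44High libraries had 120, 68.2 and 39.4. The endothelial populations covered the same range, all 3 CD44LoKitPos libraries lay above every other library, and CD44High stood between, overlapping the endothelium. Means were 51.0 ± 18.4 (SD, n = 10) in CD44Neg, 46.9 ± 17.3 (n = 6) in CD44LoKitNeg, 229.7 ± 50.1 (n = 3) in CD44LoKitPos and 75.9 ± 40.9 (n = 3) in CD44High.

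The log2 fold change of *Kit* between CD44LoKitPos and CD44LoKitNeg was 2.29 (SE 0.38, adjusted p = 0.000767; here and below from the quasi-likelihood test of edgeR, adjusted over all genes by Benjamini-Hochberg), which checks the Kit gate at the level of RNA. Against CD44Neg it was 2.17 (SE 0.33, adjusted p = 0.000204). Within E9.5 and E10, the first value was 2.24 and its call was just lost (adjusted p = 0.011, the highest over its alternatives, from 1.29e-05). The *Kit* transcript was counted in every library sorted as endothelium, with and without CD44. The difference between CD44LoKitNeg and CD44Neg was −0.11 (SE 0.29, adjusted p = 0.843); without CD44LoKitNeg replicate 16 it was 0.046, and within E9.5 and E10 0.019. *Kit* in CD44High differed from CD44LoKitPos by −1.60 on the log2 scale (SE 0.47, adjusted p = 0.0421), which did not pass the threshold of 0.01, and no stage holds both populations. In bulk libraries, fewer cells with a transcript and less of it per cell cannot be told apart.

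Markers of other cells that use KIT were summed in CD44LoKitPos, and their part in the level of *Kit* was not tested. Of the 9 primordial germ cell markers, *Dppa3*, *Pou5f1*, *Tfap2c* and *Sox2* had 0 counts in all 3 libraries, the other 5 exceeded 3 counts in at least 1 library, and the list summed to 2.53 to 7.29 normalized CPM, against 3.35 to 29.6 in CD44Neg. Of the 8 neural crest and melanoblast markers, *Sox10*, *Dct*, *Pax3*, *Tyrp1*, *Foxd3* and *Erbb3* were at 0, and the list summed to 0.400 to 7.29. Of the 10 granulocyte and mast cell markers, the sum was 71.6 to 234, against at most 6.49 in the endothelium. *Mpo* and *Prtn3* made up most of it, the mast cell gene *Cpa3* had 0 to 29 counts, and the mast cell genes *Ms4a2* and *Fcer1a* were at 0.

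*Kitl*, the gene of stem cell factor on chromosome 10 (100015630 to 100100416, plus strand), ran the other way. It ranged from 25.9 to 299 normalized CPM in CD44Neg (median 180) and from 34.6 to 127 in CD44LoKitNeg (median 68.8). In CD44LoKitPos, the E9.5 library had 22.9 (152 counts) and both E10 libraries had 0 counts. In CD44High, 2 libraries had 0 counts and the other had 1.36 (5 counts). Each CD44LoKitPos and CD44High library lay below every endothelial library.

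The log2 fold change of *Kitl* was −8.58 between CD44High and CD44Neg (SE 1.49, adjusted p = 0.000136) and −7.51 between CD44High and CD44LoKitNeg (SE 1.47, adjusted p = 0.000479). Both calls held in all 22 fits that left out 1 library, with adjusted p up to 0.00202 and 0.00512. The sizes rest on the 5 counts of CD44High replicate 22, without which CD44High was at 0 and the fitted values, then set by the prior count, were −12.94 and −11.88. From CD44Neg to CD44LoKitPos, *Kitl* differed by −4.45 on the log2 scale (SE 1.09, adjusted p = 0.0115), just outside the threshold, and it was called within E9.5 and E10 (adjusted p = 0.00028, in a range of 0.00028 to 0.0119 over the alternatives that kept all libraries), where both E10 libraries of CD44LoKitPos were at 0 and no fold is given. It was also called with no filter (0.00837), by the DESeq2 Wald test (0.000761) and with stage as a covariate (0.00507). From CD44LoKitNeg to CD44LoKitPos, the difference was −3.37 (SE 1.04, adjusted p = 0.0355), and it was called within E9.5 and E10 (0.00159, the lowest over the alternatives that kept all libraries, up to 0.0334). Against CD44Neg, without the E9.5 library of CD44LoKitPos, replicate 19, both remaining libraries were at 0 and the difference was called (adjusted p = 1e-05, in a range of 1e-05 to 0.0538 over the fits that left out 1 library). It was also called without CD44Neg replicate 9 (0.0087). Against CD44LoKitNeg, the call was likewise made without replicate 19 (3.34e-05, in a range up to 0.135 when 1 library was left out). Between the endothelial populations, *Kitl* was lower in CD44LoKitNeg, at a log2 difference of −1.07 (SE 0.38, adjusted p = 0.0502), with all 6 libraries below the CD44Neg median. The call was made only without CD44Neg replicate 9, whose 25.9 normalized CPM was the lowest of its group (adjusted p = 0.0098, in a range of 0.0098 to 0.114 when 1 library was left out).

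Set side by side per kb of exon, the ligand exceeded the receptor in 9 of 10 CD44Neg and 5 of 6 CD44LoKitNeg libraries, and the receptor exceeded the ligand in all 3 CD44LoKitPos and all 3 CD44High libraries. In CD44LoKitNeg replicate 13 the values were nearly equal (*Kitl* 8.67, *Kit* 8.49), and *Kit* was in the gate of CD44LoKitPos. *Kit* was at 33.0 to 51.4 per kb in CD44LoKitPos, where *Kitl* was at 0 to 4.06. In CD44High, *Kit* was at 7.51 to 22.9 and *Kitl* at 0 to 0.241.

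**Figure D2:**
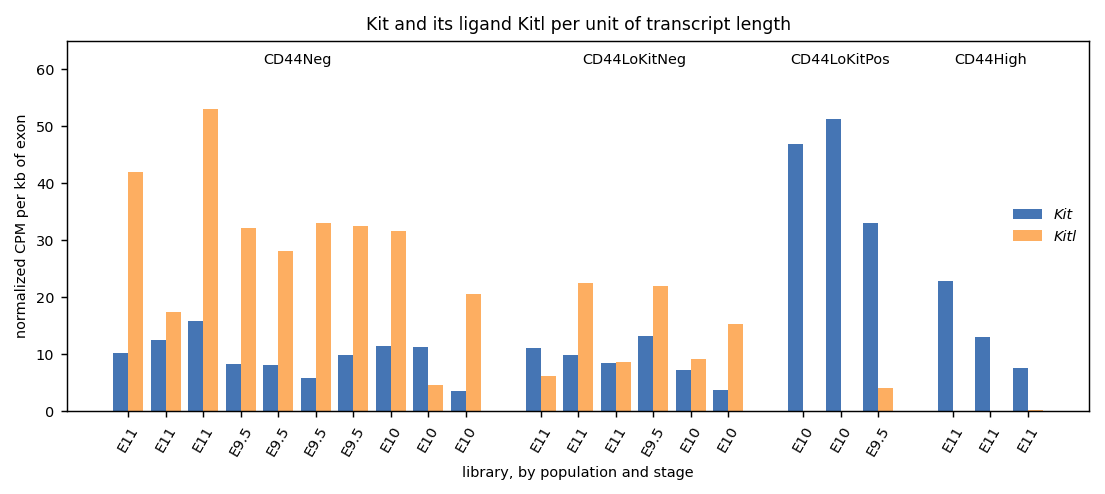
*Kit* (blue bars) and *Kitl* (orange bars) in normalized CPM per kb of exon (y axis, from 0) for each of the 22 libraries, labelled by stage and grouped by population (x axis). The orange bar is the higher one in 14 of 16 endothelial libraries and in none of the 6 CD44LoKitPos and CD44High libraries.

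*Flt3*, on chromosome 5 (147330741 to 147400489, minus strand), had 0 counts in all 10 CD44Neg libraries and in 5 of 6 CD44LoKitNeg libraries. The exception was CD44LoKitNeg replicate 16, at E10, with 88 counts (11.9 normalized CPM). The CD44LoKitPos libraries had 27.1 and 9.74 at E10 and 1.21 at E9.5. The CD44High libraries had 5.54, 7.99 and 11.4. *Flt3* was thus counted in every library of both blood-side populations and in 1 endothelial library, at a level within their range.

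Against the limit that the 0 counts of CD44Neg allow (3 per library), *Flt3* was at least 20.9-fold higher in CD44LoKitPos (adjusted p = 0.00978) and at least 13.7-fold higher in CD44High (adjusted p = 0.00464). The first bound was 9.03-fold without replicate 17, and its call was lost in 15 of the 22 fits that left out 1 library (adjusted p from 0.00236 to 0.0512), with stage as a covariate (0.0253), within E9.5 and E10 (0.0247) and with the size factors of DESeq2 (0.01). The second call was lost within E11 (adjusted p = 0.0393, in a range of 5.32e-05 to 0.0393 over the alternatives that kept all libraries) and without CD44High replicate 21 or 22. Against CD44LoKitNeg, the log2 fold change in CD44LoKitPos was 2.66 (SE 1.90, adjusted p = 0.405). Without replicate 16, adjusted p was 0.00962, the lowest when 1 library was left out (up to 0.82), and with it limma voom called the difference (adjusted p = 0.00128, the lowest over the alternatives that kept all libraries, up to 0.532).

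*Csf1r*, on chromosome 18 (61100598 to 61132149, plus strand), was at 0 counts in all CD44Neg libraries and at 0 in CD44LoKitNeg apart from 1 count in replicate 15. CD44LoKitPos held 52 and 73 counts at E10 and 10 at E9.5, or 8.06, 9.74 and 1.51 normalized CPM. CD44High held 800, 1949 and 2055 counts, or 158, 519 and 559. The populations did not overlap from CD44LoKitNeg to CD44LoKitPos, nor from there to CD44High. Its range, from 0 to 559, was the widest of the 9 members on this scale.

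*Csf1r* was at least 10.6-fold higher in CD44LoKitPos than in CD44Neg (adjusted p = 2.23e-05) and at least 680-fold higher in CD44High (adjusted p = 2.77e-09). Against the single count of CD44LoKitNeg, the ratio was 281 in CD44LoKitPos (counting interval 50.4 to 11086; adjusted p = 0.000187), and its call was just lost within E9.5 and E10 (0.0112, the highest over its alternatives, from 1.63e-09). Between CD44LoKitPos and CD44High it rose on the log2 scale by 5.99 (SE 0.73, adjusted p = 8.48e-05). With stage as a covariate the value was 7.34 and the call was lost (adjusted p = 0.145, in a range of 5.34e-13 to 0.145 over the alternatives), and stage and population cannot be told apart there. Exons of *Csf1r* overlap *Hmgxb3* on the other strand, and the strand setting of the counting is not given in the sources used here, so reads of the pair could not be separated.

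Macrophage genes and *Csf1r* were both highest in CD44High. In the 3 CD44High libraries, the macrophage markers summed to 2055, 5242 and 4813 normalized CPM where *Csf1r* was at 158, 519 and 559, and their part in its level was not tested. In CD44LoKitPos, *Adgre1*, *C1qa*, *C1qb*, *C1qc*, *Timd4* and *Ms4a7* had 0 counts in all 3 libraries. *Tyrobp*, an adaptor of myeloid receptors, was at 25.3 ± 11.95 there, and the sum of the list was 32.8 to 49.0. Outside CD44High, the sum did not follow *Csf1r*: it was 53.9 in CD44LoKitNeg replicate 14, where *Csf1r* had 0 counts.

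Of 21 genes of the class III family outside the members and of the other ligands, 7 were tested among all populations. *Csf1*, the ligand of CSF1R, was the only one called, lower in CD44High than in CD44LoKitNeg and CD44Neg, where 8.17% and 7.25% of all genes were called lower. It was at 17.6 ± 11.4 normalized CPM in CD44LoKitNeg, 6.60 ± 6.61 in CD44Neg and 0.0907 ± 0.157 in CD44High (adjusted p = 0.000979 against CD44LoKitNeg and 0.00398 against CD44Neg). *Csf1* and *Kitl* were thus both counted in endothelium and near 0 in CD44High. *Flt3l*, the ligand of FLT3, had 20 to 47 counts in CD44LoKitPos and 12 to 24 in CD44High, and passed no test. *Il34*, *Csf2*, *Csf3*, *Il3* and *Il11* were at 0 in all 22 libraries.

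*Csf2rb*, on chromosome 15 (78325752 to 78353847, plus strand), had 0 counts in all 16 endothelial libraries. The CD44LoKitPos libraries had 41 and 5 counts at E10 and 44 at E9.5, or 6.36, 0.667 and 6.63 normalized CPM. The CD44High libraries had 16.6, 41.8 and 52.8. Each blood-side library exceeded 3 counts, and each CD44High library lay above each CD44LoKitPos library.

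*Csf2rb* was at least 7.51-fold higher in CD44LoKitPos than in CD44Neg (adjusted p = 0.0022) and at least 10.9-fold higher than in CD44LoKitNeg (adjusted p = 0.00516). The bounds for CD44High were 61.2-fold over CD44Neg (adjusted p = 7.08e-05) and 88.5-fold over CD44LoKitNeg (adjusted p = 0.00028). Against CD44Neg, the call for CD44LoKitPos was lost without its replicate 17 (adjusted p = 0.0108; the other fits that left out 1 library began at 0.00193). Against CD44LoKitNeg, it was lost without that replicate (0.0303), without CD44High replicate 21 or 22, which share the fit, with stage as a covariate (0.0306) and within E9.5 and E10 (0.0697, in a range from 0.000171 over the alternatives that kept all libraries). The gene *Csf2rb2* shares 892 of the 4851 windows of 50 bases in the longest protein-coding transcript of *Csf2rb* (18.4%), so the counting may have split or dropped reads from the shared parts. *Csf2rb2* itself had 24 counts in CD44LoKitNeg replicate 16, 12, 1 and 0 in CD44LoKitPos and 7, 14 and 11 in CD44High.

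CSF2RB signals together with an α chain for each cytokine, and these chains were named for this pairing and not by their values. *Csf2ra*, of the GM-CSF receptor, was counted in all 4 populations, at 3.72 ± 3.73 normalized CPM in CD44Neg and 25.5 ± 14.3 in CD44High (log2 fold change 2.77, SE 0.98, adjusted p = 0.0431). *Il3ra*, of the IL-3 receptor, was at 2.26 ± 2.35, 5.17 ± 4.29, 2.53 ± 0.920 and 3.10 ± 1.17 in CD44Neg, CD44LoKitNeg, CD44LoKitPos and CD44High, which do not differ beyond their spread. *Il5ra* was at 0 in 19 libraries and at 0 to 304 counts in CD44High. The α chains of the IL-3 and GM-CSF receptors were thus counted in endothelium in which the shared chain was at 0.

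*Csf3r*, on chromosome 4 (126024550 to 126044440, plus strand), ranged from 0 to 8.65 normalized CPM in CD44Neg (median 3.22; above 3 counts in 8 of 10 libraries) and from 0 to 1.62 in CD44LoKitNeg (median 0; above 3 counts in 2 of 6). CD44LoKitPos had 55.2 and 14.1 at E10 and 14.2 at E9.5. CD44High had 38.0, 88.9 and 81.9. Of the myeloid receptors *Csf1r*, *Csf2rb* and *Csf3r*, it alone had counts in most CD44Neg libraries, and its level there lay below every CD44LoKitPos library.

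*Csf3r* rose on the log2 scale by 5.92 from CD44LoKitNeg to CD44LoKitPos (SE 1.21, adjusted p = 0.00348). This call was lost without CD44LoKitPos replicate 17 (adjusted p = 0.038, the highest when 1 library was left out, from 0.00246) and within E9.5 and E10 (0.137, the highest over the other alternatives, from 5.33e-05). From CD44LoKitNeg to CD44High the value was 7.25 (SE 1.26, adjusted p = 0.000142), and from CD44Neg to CD44High it was 4.34 (SE 0.93, adjusted p = 0.00117), a call lost within E11 (0.028, the highest over its alternatives) and without CD44High replicate 21 (0.0105, the highest when 1 library was left out). Between CD44Neg and CD44LoKitPos it was 3.02 (SE 0.93, adjusted p = 0.0484). Here limma voom made the call (3.63, adjusted p = 0.00499, the lowest over the alternatives that kept all libraries, up to 0.219), and with 1 library left out adjusted p was 0.0379 to 0.426. The lower level in CD44LoKitNeg than in CD44Neg did not pass the test (−2.92, SE 1.35, adjusted p = 0.137). The granulocyte and mast cell markers summed to at most 6.49 normalized CPM in the 16 endothelial libraries. The sum was 71.6 to 234 in CD44LoKitPos and 353 to 1027 in CD44High. *Elane* was at 0 throughout the endothelium, and *Ctsg* was at 0 in all 4 populations. Of the 10 markers, 5 were at 0 in CD44High.

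*Il7r*, on chromosome 15 (9505788 to 9530176, minus strand), had 0 counts in all 16 endothelial libraries. It had 29, 0 and 0 counts in CD44LoKitPos and 6, 0 and 13 in CD44High, and it passed neither filter on low counts, so it was not tested. *Il7r* was thus seen in 3 of the 6 blood-side libraries. Its partner *Il2rg*, the common γ chain, was counted in every library, at 102 ± 47.9 normalized CPM in CD44Neg and 232 ± 74.9 in CD44LoKitNeg (log2 fold change 1.19, SE 0.29, adjusted p = 0.00643). The lymphoid markers *Rag1*, *Cd3e* and *Dntt* were at 0 in CD44LoKitPos. In CD44High, *Cd3e*, *Cd79a* and *Dntt* were at 0, *Rag1* had 0 to 6 counts and *Rag2* 0 to 96, and *Blnk*, an adaptor of the B cell receptor, was called higher than in CD44Neg (21.2 ± 18.8 against 0.265 ± 0.7499 normalized CPM, adjusted p = 0.00484). With *Blnk* this low in CD44Neg and at 0 in CD44LoKitNeg, the direction of its call was largely fixed beforehand. *Lck*, a kinase of T cells, was called lower in CD44High than in CD44Neg (log2 fold change −5.75, adjusted p = 0.000349). The list of 9 summed to 46.5 to 130, against 36.1 to 104 in CD44Neg.

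*Epor*, on chromosome 9 (21958897 to 21963506, minus strand), ranged from 0 to 3.60 normalized CPM in CD44Neg (median 0; above 3 counts in 3 of 10 libraries) and from 0 to 7.72 in CD44LoKitNeg (median 5.08; above 3 counts in 4 of 6). CD44LoKitPos had 1.55 and 7.20 at E10 and 2.41 at E9.5, and CD44High had 29.7, 10.7 and 52.8. The CD44High libraries lay above all others, while CD44LoKitNeg and CD44LoKitPos covered the same range.

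*Epor* rose from CD44Neg to CD44High by 5.18 on the log2 scale (SE 1.34, adjusted p = 0.00615). The call was lost without any 1 of the 3 CD44High libraries, without CD44Neg replicate 5 or 8 (adjusted p from 0.00388 to 0.0455 when 1 library was left out), with stage as a covariate (0.0211) and within E11 (0.126). CD44High against CD44LoKitNeg (2.95, SE 1.52, adjusted p = 0.159) and against CD44LoKitPos (3.05, SE 1.96, adjusted p = 0.461) did not pass the test, although limma voom called the first (4.25, adjusted p = 0.00572, the lowest over the alternatives that kept all libraries, up to 0.266). Between CD44Neg and CD44LoKitNeg, the value was 2.23 (SE 1.35, adjusted p = 0.271). In CD44High, the 12 erythroid markers summed to 358, 47.4 and 312 normalized CPM in the libraries with 29.7, 10.7 and 52.8 of *Epor*. *Slc4a1* was at 0 there, and 3 of 12 exceeded 3 counts in every library. *Hba-a1*, *Hba-a2*, *Hbb-bt* and *Hbb-b1* were at 0 in all 4 populations. Outside CD44High, the sum of the erythroid markers was at most 60.7, in CD44LoKitNeg replicate 12, where *Epor* was at 0. Their part in the level of *Epor* was not tested. In CD44LoKitNeg, the erythroid genes *Klf1*, *Slc4a1* and *Epb42* had 0 counts in all 6 libraries, and *Hbb-y*, an embryonic globin, had 71 to 403. *Jak2*, the kinase bound by EPOR, was at 15.1 ± 7.85 in CD44Neg and 41.6 ± 16.7 in CD44LoKitNeg (log2 fold change 1.47, SE 0.40, adjusted p = 0.0122).

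**Figure D3:**
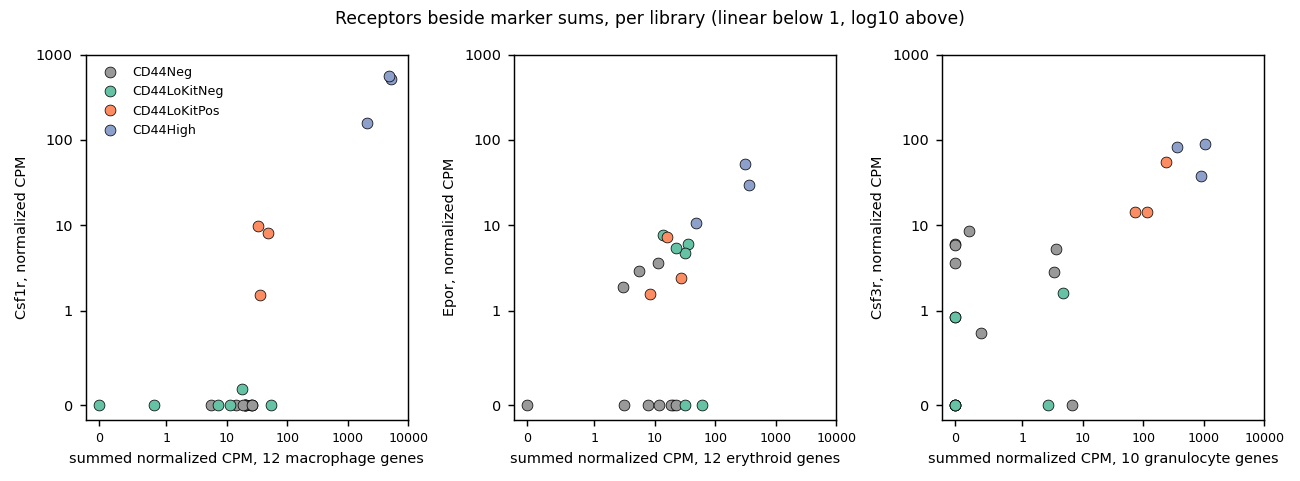
*Csf1r*, *Epor* and *Csf3r* (y axes, normalized CPM) against the summed normalized CPM of the macrophage, erythroid, and granulocyte and mast cell markers (x axes) in the 22 libraries, coloured by population; both axes are linear below 1 and log10 above. CD44High lies apart at the upper right for *Csf1r*, with marker sums of 2055 to 5242, while the 3 CD44LoKitPos libraries have *Csf1r* of 1.51 to 9.74 at sums of 32.8 to 49.0.

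*Il6st*, on chromosome 13 (112464070 to 112510086, plus strand), ranged from 13.9 to 52.7 normalized CPM in CD44Neg (median 29.5) and from 30.4 to 78.9 in CD44LoKitNeg (median 38.5). CD44LoKitPos had 9.31 and 0 at E10 and 23.4 at E9.5, and CD44High had 1.98, 27.7 and 35.1. All 6 CD44LoKitNeg libraries lay above the CD44Neg median, and all 3 CD44LoKitPos libraries lay below every CD44LoKitNeg library.

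No difference of *Il6st* passed the test. The log2 fold change was 0.54 between CD44LoKitNeg and CD44Neg (SE 0.28, adjusted p = 0.19) and −0.03 within E9.5 and E10. It was −2.02 between CD44LoKitPos and CD44LoKitNeg (SE 0.85, adjusted p = 0.122). The chains that pair with gp130 were again named for the pairing. *Lifr*, of the LIF receptor, was at 128 ± 43.0 normalized CPM in CD44Neg, 225 ± 117 in CD44LoKitNeg, 32.6 ± 52.3 in CD44LoKitPos and 25.3 ± 13.5 in CD44High, and passed no test (lowest adjusted p 0.0107, CD44High against CD44LoKitNeg). *Osmr*, of the oncostatin M receptor, was at 47.0 ± 32.2 in CD44LoKitNeg and at 0 in CD44High, at least 63.9-fold lower (adjusted p = 0.00556). *Il6ra*, of the IL-6 receptor, was at 0.281 ± 0.686 in CD44Neg, 0.411 ± 0.928 in CD44LoKitNeg and 29.3 ± 13.2 in CD44High, and was called higher there (log2 fold change 6.60 against CD44Neg, SE 1.42, adjusted p = 0.0012). With 14 counts in all of CD44Neg, the direction of this call was largely fixed beforehand.

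Counted over the members, 0 of 5 tested were called between CD44LoKitNeg and CD44Neg, where 10.2% of 11022 genes were called. At an unadjusted p under 0.05, *Kitl* and *Csf3r* passed, and the DESeq2 and limma voom tests called 0 members as well. Their median log2 fold change was −0.11, against 0.01 over all genes tested. Between CD44LoKitPos and CD44LoKitNeg, 4 of 8 were called higher and 0 lower (*Kit*, by the gate, *Csf1r*, *Csf2rb* and *Csf3r*), where 2.55% of 12949 genes were called higher and 1.71% lower. Over all genes, 330 of the 552 calls were higher with TMM scaling and 218 of 491 with the size factors of DESeq2, which moved the median of all genes from −0.02 to −0.16; the 4 members stayed higher. The count was 2 without CD44LoKitPos replicate 17. Within E9.5 and E10, all 4 calls were lost and *Kitl* alone was called, in the other direction (lower, adjusted p = 0.00159). *Csf1r* and *Csf2rb* passed the filter on low counts only through the populations in which they were high, as did *Flt3*, and *Kit* was in the gate, so these counts of higher calls are a description and were largely fixed beforehand. Between CD44LoKitPos and CD44Neg, 4 of 8 were called higher (*Kit*, *Flt3*, *Csf1r* and *Csf2rb*; 2.08% of all genes), and 2 without replicate 17.

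CD44High differed from CD44LoKitPos in 1 of 8 members, *Csf1r*, against 3.01% of all genes. Against CD44LoKitNeg, 3 of 8 were called higher (*Csf1r*, *Csf2rb* and *Csf3r*; 7.79% of all genes) and 1 lower (*Kitl*; 8.17%). Against CD44Neg, 5 of 8 were called higher (*Flt3*, *Csf1r* and *Csf2rb*, which could only be higher as CD44Neg was at 0, and *Epor* and *Csf3r*; 7.14%) and 1 lower (*Kitl*; 7.25%), which became 3 in all without CD44High replicate 21 and within E11. These comparisons share libraries, so the lists of genes are not independent of each other. The groups of libraries did not overlap for 6 of 8 members between CD44High and CD44Neg, 5 higher and 1 lower, where this held for 9.64% of genes upward and 9.12% downward.

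**Figure D4:**
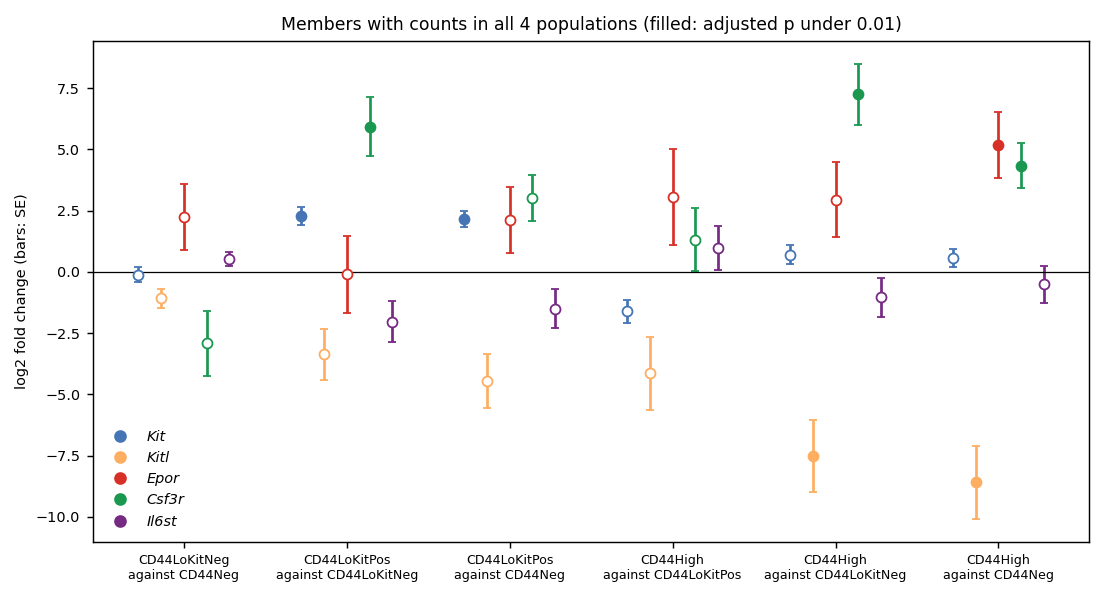
Log2 fold changes (y axis) of the 5 members with counts in all 4 populations, for the 6 comparisons of populations (x axis); bars are standard errors and filled points have an adjusted p under 0.01. *Kitl* is below 0 in every comparison and reaches −8.58, *Csf3r* is filled in 3 comparisons, and *Il6st* is filled in none.

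Stage was compared within the populations, where the date in the labels changes with the stage and cannot be told apart from it. In CD44Neg, *Kit* was at 53.8 to 83.01 normalized CPM at E11 and 30.3 to 52.2 at E9.5, which did not overlap, as for 8.93% of genes upward, but the log2 fold change of 0.68 did not pass the test (SE 0.39, adjusted p = 0.473). In CD44LoKitNeg, *Il6st* was at 44.1 to 78.9 at E11 and 30.4 to 32.9 at E9.5 and E10, which did not overlap, as for 10.4% of genes upward (log2 fold change 0.88, SE 0.92, adjusted p = 0.675). *Epor* was above 3 counts in all 3 early CD44LoKitNeg libraries (40 to 46 counts) and in 1 of 3 at E11. No member with a usable value (5 of 9) was called for stage in CD44Neg, where 0.0463% of genes were called, in CD44LoKitNeg (1.57%), or for a change of the difference between these populations with stage (0.116%). The unadjusted p was under 0.05 for *Csf3r* in CD44LoKitNeg and for no other of these values, and DESeq2 and limma voom called 0.

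The E9.5 library of CD44LoKitPos differed from the E10 libraries in several members. It had the lowest *Kit* (174), *Flt3* (1.21) and *Csf1r* (1.51) of the 3 libraries and the highest *Kitl* (22.9) and *Il6st* (23.4). *Csf2rb*, at 0 in the endothelium, was also highest there (6.63), close to the 6.36 of an E10 library. Its endothelial markers summed to 2387 normalized CPM, against 1079 and 1505 at E10, and its stem and progenitor markers to 531, against 1020 and 1006. With 1 library at this stage, there is no test of the difference.

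Beyond the members, 32 other cytokine receptor genes were examined, of which 18 were tested between the endothelial populations and 24 among all 4. The added 6 passed the filter only with the blood-side libraries, so counts and medians over the 24 are a description and their higher calls were fixed in part beforehand. Between CD44LoKitNeg and CD44Neg, 3 rose and 0 fell, where 10.2% of all genes were called: *Ghr*, the growth hormone receptor (113 ± 20.5 against 28.0 ± 14.98 normalized CPM; log2 fold change 2.02, SE 0.29, adjusted p = 9.36e-05), *Il2rg* and *Ifngr1*, of the interferon γ receptor (218 ± 47.5 against 99.0 ± 26.6; 1.15, SE 0.19, adjusted p = 0.000269). Their median was 0.62, against 0.01 over all genes. None of these 3 receptors is a member.

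Between CD44LoKitPos and CD44LoKitNeg, 3 of 24 rose and 0 fell, against 2.55% and 1.71% of all genes, of which 2 are given here, both at 0 in CD44LoKitNeg and so able to differ in this direction only. *Il12rb2* was at least 39.4-fold higher (adjusted p = 0.00435) and *Il10ra* at least 5.02-fold higher (adjusted p = 0.00532). From CD44LoKitPos to CD44High, *Ifngr2* rose (2.26, SE 0.44, adjusted p = 0.00179) and *Il11ra1* fell (−2.52, SE 0.52, adjusted p = 0.00293). Against CD44LoKitNeg, 9 of 24 were higher in CD44High and 3 lower (7.79% and 8.17% of all genes), with a median of 1.22 against 0.00 over all genes, and against CD44Neg 7 were higher and 1 lower (7.14% and 7.25% of all genes; median 1.26 against −0.02).

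Signalling proteins below the receptors were examined next. Of 11 JAK and STAT genes, *Stat4* alone was called, higher in CD44LoKitNeg (38.5 ± 26.1 normalized CPM) and CD44LoKitPos (74.9 ± 17.6) than in CD44Neg (1.67 ± 2.70; adjusted p = 0.00438 and 0.00212), where 10.2% of all genes were called in the first comparison and 2.08% higher in the second. *Stat5a*, a main effector of these receptors, had values of 4.18 ± 2.65, 5.05 ± 4.24, 15.6 ± 0.922 and 28.6 ± 7.48 from CD44Neg to CD44High and did not pass the test (adjusted p = 0.0113 between these ends). Of 19 negative regulators, 2 were called higher and 0 lower in CD44LoKitPos than in CD44Neg, where 2.08% of all genes were called higher, and 0 higher and 1 lower in CD44LoKitPos than in CD44LoKitNeg, against 2.55% and 1.71%. The phosphatase gene *Ptpn6* (SHP-1) rose from 4.50 ± 5.29 in CD44Neg to 238 ± 87.2 in CD44LoKitPos (adjusted p = 0.000504). The adaptor *Dok2* rose from 0.232 ± 0.533 to 134 ± 103 (adjusted p = 1.62e-06). *Dok2* had 11 counts in all of CD44Neg, so the direction of its call was largely fixed beforehand. Between the endothelial populations, 2 of 18 tested rose and 0 fell (*Sh2b3* and *Pias2*), near the 10.2% called over all genes. *Sh2b3* (LNK), which restrains KIT and EPOR signalling, was highest in CD44LoKitNeg, at 135 ± 24.4, against 52.4 ± 12.8 in CD44Neg (log2 fold change 1.37, SE 0.18, adjusted p = 3.95e-05) and 47.8 ± 13.2 in CD44LoKitPos (−1.50, SE 0.34, adjusted p = 0.00619).

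Of 16 adaptors and kinases downstream of KIT, 15 were tested between the endothelial populations, and 1 rose and 1 fell, near the 10.2% called over all genes. *Plcg2* rose from 10.3 ± 8.27 normalized CPM in CD44Neg to 67.6 ± 21.01 in CD44LoKitNeg (log2 fold change 2.72, SE 0.67, adjusted p = 0.00665), while *Lyn*, a SRC family kinase, fell by 1.01 (SE 0.21, adjusted p = 0.00227). *Pik3cd*, the leukocyte PI3-kinase subunit, was at 0.260 ± 0.391 in CD44Neg, 0.135 ± 0.269 in CD44LoKitNeg, 8.07 ± 3.13 in CD44LoKitPos and 48.3 ± 15.98 in CD44High. It was called in all 4 comparisons of an endothelial with a blood-side population, which share libraries. With 15 counts in all of CD44Neg and 6 in all of CD44LoKitNeg, the direction of these calls was largely fixed beforehand. Between CD44High and CD44Neg, 3 of the 16 were higher, *Pik3cd* among them, and 2 lower, against 7.14% and 7.25% of all genes. *Plcg1* was lower in CD44High (5.03 ± 4.52) than in CD44LoKitNeg (72.7 ± 34.7; −3.85, SE 0.80, adjusted p = 0.000816). Of 10 STAT5 target genes, 1 of 8 tested was called between the endothelial populations (*Mcl1*, a survival factor; 0.76, SE 0.19, adjusted p = 0.00704), with a list median of −0.93 against 0.01 over all genes, and *Mcl1* alone was called between CD44High and CD44Neg.

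The genes whose pattern over the 22 libraries was nearest to each member were found as those with the smallest root mean square (RMS) difference of centred log2 CPM among 12949 genes. For *Csf2rb* these were *1810011H11Rik* (RMS 0.452) and *Smim5* (0.503), and for *Kit* *Gse1* (0.6255) and *Rragb* (0.641). For *Csf1r* they were *Pld4* (0.663) and *Gm15915* (0.677). The next were *Plcb2* (0.751) and *Bzrap1* (0.991) for *Flt3*, *Rapgef4* (0.920) and *Plpp3* (1.12) for *Kitl*, and *Trim26* (0.961) and *Vangl1* (1.02) for *Il6st*. *Epor* (*Lgals3*, 1.22; *Ctps2*, 1.49) and *Csf3r* (*Tmem40*, 1.36; *Slc35d3*, 1.37) had no gene as near. The likeness is a description over libraries that also share depth and population, and a gene with little spread of its own, such as *Kit* (0.961), reaches a small difference more easily than one with a wide spread, such as *Csf1r* (3.52).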

How the data were processed

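VE-Cadherin+ cells of C57BL/6 embryos were sorted in pools of 25 cells, and cDNA was made by SMART-Seq2 and sequenced on an Illumina NextSeq. The authors clipped adapters (FASTX), used STAR for alignment and ran htseq-count, on a Galaxy server, to obtain gene counts. FastQC, HTSeq and the build mm10 are named in the submitters' processing notes. The annotation, the strand setting and the handling of reads with several matches are not given in the sources used here. The deposited values are raw counts per gene symbol, without normalization, with 0 sample columns left unused and 0% of rows without a gene.

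The counts were tested with edgeR 4.0.16 (quasi-likelihood test; R 4.3.3, limma 3.58.1). Genes were kept by filterByExpr (minimum count 10, minimum total 15) and scaled by TMM, and p-values were adjusted by Benjamini-Hochberg over all genes tested. A gene was called at an adjusted p under 0.01. CD44LoKitNeg and CD44Neg were compared in their own 16 libraries, and all other comparisons of populations used the 22 libraries. Stage was tested in a fit of 9 population-stage groups. Fold changes used a prior count of 0.125. Where a group had 0 counts, the fold is a lower bound against 3 counts per library. Groups came from the labels.

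The members and the gene lists (16, with 10 marker lists) were chosen with earlier results of these data known. Named genes are the members, at most 3 called genes per list and comparison, and the 2 nearest genes per member (log2 CPM with prior count 2); partner chains and marker genes at 0 were named outside this rule. Some genes that the rule names are not reported here. Alternatives were DESeq2 (1.42.0) size factors and Wald test, limma voom, no filter, leaving out *Rn45s*, stage as a covariate, comparisons within stages, a threshold of 0.05, and leaving out each library. The scripts were tested on simulated data. Positions were from GENCODE and start regions from RefSeq. Figures used Python 3.11.15, pandas 2.3.3 and matplotlib 3.10.9.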

Additional observations from a re-analysis of the deposited data

Results flagged for a closer look

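*Flt3* in CD44LoKitNeg replicate 16, at E10, was at 11.9 normalized CPM while the other 5 libraries of the population were at 0, so this library stood apart from its group. *Csf1r* in CD44LoKitNeg replicate 15, also at E10, was at 0.168 normalized CPM, which is 1 count, while the other 5 libraries were at 0. These were the 2 values that stood apart in the 12 groups of 4 to 10 libraries examined, with Dixon's criterion at its 95% critical value. By chance it marks about 1 group in 20, and in a group that is otherwise at 0 any single count meets it.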

How the results depend on the processing

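Of 1672 values of single members under an alternative, 1594 kept their direction and their side of the threshold, 41 lost the call, 16 gained it and 21 changed sign. Where not stated, the cause was not tested. No paired analysis was possible because every library has a replicate number of its own. *Flt3*, *Il7r*, *Epor* and *Csf2rb* had few counts or 0 in many libraries, where a level under the limit of 3 counts could not be seen at this depth.

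The number of members called between CD44LoKitNeg and CD44Neg was 0, and 0 to 1 when 1 library was left out (1 without CD44Neg replicate 9). Between CD44LoKitPos and CD44LoKitNeg, it was 4 (all higher), then 1 within E9.5 and E10 (*Kitl*, lower, with none of the 4 kept) and 2 to 5 with 1 library left out; between CD44LoKitPos and CD44Neg it was 4, with 2 to 5. CD44High against CD44LoKitPos gave 1, then 2 by limma voom, 0 with stage as a covariate and 2 at an adjusted p under 0.05. CD44High against CD44Neg gave 6, then 3 within E11 and 3 to 6 with 1 library left out. The lowest counts came without CD44LoKitPos replicate 17 and without CD44High replicate 21.

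Values that changed sign were all outside the threshold. Within E9.5 and E10, *Kit* was at 0.019 and *Il6st* at −0.032 (log2 fold change of CD44LoKitNeg over CD44Neg). In CD44LoKitPos against CD44LoKitNeg, *Epor* was at 1.21 by limma voom, and in CD44High against CD44LoKitPos *Flt3* was at 0.16 by limma voom and 5.14 with stage as a covariate. The other changes of sign came from leaving out 1 library, over which *Kit* ranged from −0.23 to 0.046 between CD44LoKitNeg and CD44Neg and from −0.0061 (without CD44High replicate 20) to 0.86 between CD44High and CD44Neg. *Epor* ranged from −1.04 to 0.25 between CD44LoKitPos and CD44LoKitNeg. Between CD44High and CD44LoKitPos, *Flt3* ranged from −1.16 to 0.58, and *Kitl* from −8.53 to 4.30, the last without CD44LoKitPos replicate 19, when CD44LoKitPos was at 0 and the value rests on the prior count. For E11 against E9.5 in CD44Neg, *Kitl* ranged from −0.074 to 0.61, *Epor* from −6.03 to 0.50 and *Il6st* from −0.15 to 0.074. *Kitl* ranged from −1.16 to 0.028 for stage in CD44LoKitNeg, and *Kit* from −0.63 to 0.29 for the dependence on stage.

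Over all genes, 1121 calls between CD44LoKitNeg and CD44Neg became 1746 by the DESeq2 Wald test, 471 within E11 and 182 within E9.5 and E10. The 552 between CD44LoKitPos and CD44LoKitNeg became 1265 by DESeq2, 1244 by limma voom, 366 with stage as a covariate and 121 within E9.5 and E10. The 451 between CD44LoKitPos and CD44Neg became 829 by DESeq2 and 729 by limma voom, and the 390 between CD44High and CD44LoKitPos became 716 by DESeq2. For stage, 6 calls in CD44Neg became 101 with no filter, 192 by DESeq2 and 86 by limma voom, 203 in CD44LoKitNeg became 484, 611 and 597, and 15 for the dependence on stage became 112 with no filter and 95 by DESeq2.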
